A study of Mus musculus with 8 samples.

Results

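The naive pluripotency transcription factors are the regulators that hold mouse embryonic stem cells (ESCs) in the state of the preimplantation epiblast. The set described here has 10 members, Nanog, Esrrb, Klf2, Klf4, Klf5, Tfcp2l1, Tbx3, Prdm14, Zfp42 and Nr0b1, chosen by gene symbol from a table of 48440 genes. Each symbol matched 1 row, and all 10 passed the filter on low counts, which left 17739 genes to test. RNA was sequenced from ESCs of the 129/Ola background in 4 groups of 2 libraries each: β-catenin knock-out cells (CTNNB1-/-) with 3 μM CHIR99021, which inhibits the kinase GSK3; knock-out cells with the vehicle DMSO at 0.3 μl/ml; parental cells (CTNNB1+/+) with CHIR99021; and parental cells with DMSO. Treatment lasted 72 hours in all groups. All cells grew without feeders on gelatin in DMEM with serum, and the supplements that the labels list do not include LIF. The labels name no further line of either genotype, so that loss of β-catenin and any other difference between these lines cannot be told apart. They do not say whether the 2 libraries of a group came from separate cultures, and each p-value therefore rests on how far these libraries differ, which may be technical.

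In ESCs these factors bind one another's genes and those of Oct4 and Sox2, forming a network fed by LIF through STAT3 and by the Wnt pathway. Tcf7l1, a DNA-binding partner of β-catenin also called TCF3, acts in mouse ESCs mainly as a repressor of this network. When GSK3 is inhibited, β-catenin accumulates and lifts that repression. Nanog, Esrrb, Klf2 and Tfcp2l1 are the members described as repressed by Tcf7l1 in mouse ESCs. Klf4 and Tfcp2l1 are also targets of LIF and STAT3, and Prdm14 represses FGF signalling genes and de novo DNA methyltransferase genes.

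Totals ran from 23650572 to 27680649 estimated counts per library. Levels are given as CPM, counts scaled to a common library total. The coefficient of variation between the 2 libraries of a group was 0.353% to 8.52% over the members and groups, with a median of 1.63%. Ctnnb1 was at 7.98 to 10.7 CPM in the 4 knock-out libraries, against 813 to 906 CPM in the 4 parental libraries. The ESC markers Pou5f1, Sox2, Sall4, Utf1 and Dppa4 were all above 1 CPM in every group, and summed to 2032 to 2068 CPM in knock-out cells with CHIR99021, 2229 to 2361 CPM in knock-out cells with DMSO, 1949 to 2015 CPM in parental cells with CHIR99021 and 2304 to 2382 CPM in parental cells with DMSO. The 8 streak and mesoderm markers summed to 43.3 to 45.3 CPM in parental cells with CHIR99021 and to 3.59 to 4.64 CPM in the other 6 libraries. None of the 8 was at 0 in a whole group. In parental cells with CHIR99021 most of the sum was Eomes, at 30.5 and 30.4 CPM, and T, at 12.3 and 10.4 CPM. None of the other markers stood above the 1.25 CPM that Mixl1 reached. The 8 primitive endoderm markers summed to 154 to 164 CPM in the knock-out libraries. In parental cells they summed to 99.1 to 101 CPM with CHIR99021 and 143 to 147 CPM with DMSO. Lama1 made up most of each sum, at 84.2 to 132 CPM. With CHIR99021 in parental cells 1 of the 6 tested was higher and 2 lower by edgeR, beside 9.1% and 10.3% of all genes. DESeq2 called 0 higher and 2 lower. In DMSO 3 of the 6 were higher in the knock-out (2 by DESeq2) and none lower, beside 3.13% and 3.62% of all genes. In CHIR99021 4 of the 6 were higher in the knock-out (4 by DESeq2) and none lower, beside 11.2% and 12.5%. The 7 trophoblast markers summed to 3.9 to 6.09 CPM over all 8 libraries, and none was at 0 in a whole group. Of the 4 tested 1 was higher with CHIR99021 in parental cells, Cdx2, beside 9.1% of all genes. Cdx2 was at 1.34 and 1.80 CPM there and at 0.0381 to 0.435 CPM in the other 6 libraries. The 6 fibroblast markers summed to 15.7 to 17.2 CPM in knock-out cells with CHIR99021, 13.3 to 14.8 CPM in knock-out cells with DMSO, 20.4 to 22.0 CPM in parental cells with CHIR99021 and 9.4 to 11.1 CPM in parental cells with DMSO. Postn was at 0 in every group and Col3a1 in 3 of 4. Of the 3 tested 2 were higher with CHIR99021 in parental cells by edgeR, Pdgfrb and Thy1, beside 9.1% of all genes. DESeq2 called 1 of them higher. The 6 neural ectoderm markers summed to 49.4 to 50.3 CPM in parental cells with CHIR99021 and to 83.1 to 109 CPM in the other 6 libraries. With CHIR99021 5 of the 5 tested were lower in parental cells (4 by DESeq2), beside 10.3% of all genes. In the knock-out 3 were lower (1 by DESeq2), beside 4.18%, and none was higher in either line. The part of these other cell states in the results below was not tested, and in bulk RNA fewer naive cells and less RNA per cell cannot be told apart.

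The 10 members spanned a wide range of levels, which hardly changed its order between groups. Per kb of annotated exon (the union of exons in GENCODE M21), the levels in parental cells with DMSO were 335 CPM per kb for Zfp42, also known as Rex1 and a common marker of the naive state, 275 for Nanog, 124 for Esrrb, 94.7 for Tfcp2l1, 77.3 for Klf4, 69.1 for Klf2, 59.3 for Nr0b1, 30.5 for Klf5, 28.1 for Tbx3 and 13.5 for Prdm14. Zfp42 led and Nanog came next in every group, and Prdm14 was last. Some neighbours did not differ beyond their spread: Klf5, at 33.0 ± 0.886 CPM per kb, and Tbx3, at 33.0 ± 0.233, in parental cells with CHIR99021, and Klf2, at 55.3 ± 3.94, and Nr0b1, at 55.6 ± 0.199, in knock-out cells with CHIR99021 (SD, n = 2). In knock-out cells with CHIR99021 Tbx3, at 30.3 ± 0.591, stood above Klf5, at 29.4 ± 0.536. In parental cells with CHIR99021 Tfcp2l1, at 153 ± 2.04 CPM per kb (SD, n = 2), stood above Esrrb, at 124 ± 0.437. In the other 3 groups Tfcp2l1 was below Esrrb, for example at 83.2 ± 0.952 beside 115 ± 5.43 CPM per kb in knock-out cells with DMSO. Exon unions can be longer than the transcripts in use, so the order between genes is approximate.

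**Figure D1:**
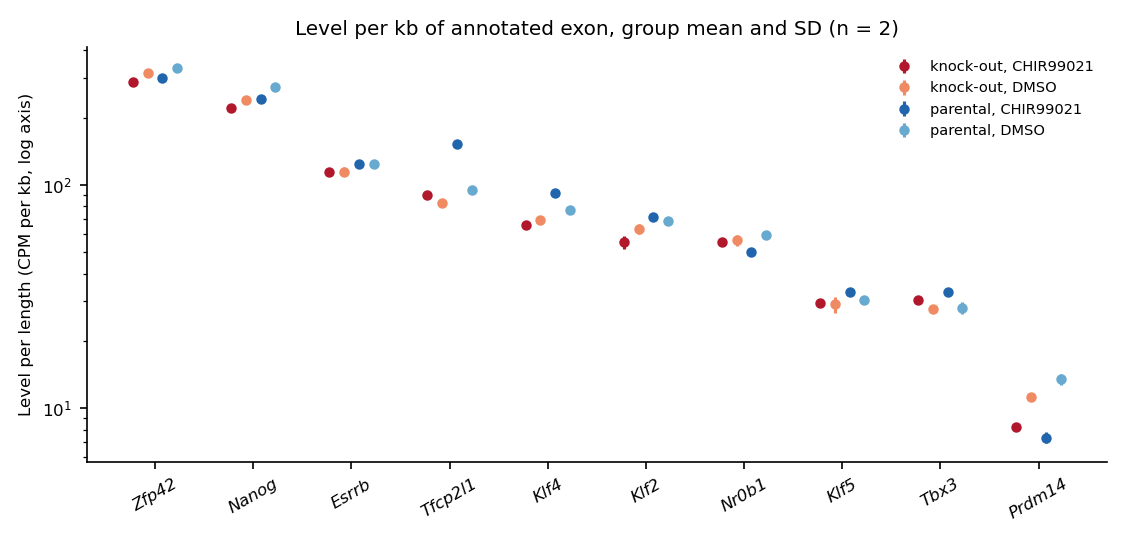
Level of each of the 10 factors per kb of annotated exon, in CPM per kb on a log axis, as group mean with SD (n = 2); genes are ordered by their level in parental cells with DMSO. Zfp42 and Nanog lead in all 4 groups, Prdm14 is lowest, and Tfcp2l1 in parental cells with CHIR99021 stands above Esrrb.

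Read comparison by comparison, the set moved in both directions and mostly by small amounts. In parental cells CHIR99021 against DMSO called 7 of the 10 members, with Tfcp2l1, Klf4 and Tbx3 higher and Nanog, Prdm14, Zfp42 and Nr0b1 lower; over all genes 19.4% were called, 9.1% as higher and 10.3% as lower (edgeR quasi-likelihood test, adjusted p under 0.05 here and throughout). The median of the absolute log2 fold changes was 0.21 for the members and 0.18 for all genes tested. The same treatment in knock-out cells called 1 of 10, Prdm14, which was lower, where 7.06% of all genes were called, 2.88% as higher and 4.18% as lower. No member was called higher there by edgeR. At an unadjusted p under 0.05 2 were higher and 4 lower, a threshold for which no share of all genes is given. DESeq2 called 1 higher and 3 lower, and 734 of all genes (1252 with edgeR). Without knock-out DMSO replicate 2, which leaves 1 library in that group, the log2 fold changes were -0.14 for Nanog, -0.25 for Klf2 and -0.17 for Zfp42.

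In CHIR99021 the knock-out differed from the parental line in 6 of 10 members, with Nanog, Klf2, Klf4, Klf5 and Tfcp2l1 lower and Nr0b1 higher, beside 23.7% of all genes, 11.2% as higher and 12.5% as lower. Nanog, Klf5 and Nr0b1 lost their calls without any 1 of the 4 CHIR99021 libraries, and most of these fits called fewer of all genes. Over all omissions of 1 library their log2 fold changes were -0.13 to -0.11, -0.19 to -0.14 and 0.14 to 0.17. Klf2, Klf4 and Tfcp2l1 kept their calls. In DMSO 4 of 10 were called, Nanog, Klf4, Tfcp2l1 and Prdm14, all lower, beside 6.75% of all genes, 3.13% as higher and 3.62% as lower. None was called higher, also at an unadjusted p under 0.05 and by DESeq2, which called 3 lower and 701 of all genes. These calls were lost without parental DMSO replicate 1 or 2, where fewer of all genes were called too. The log2 fold changes in these 2 fits were -0.19 and -0.21 for Nanog and -0.12 and -0.20 for Klf4. They were -0.19 and -0.18 for Tfcp2l1 and -0.32 and -0.20 for Prdm14. All 10 fitted log2 fold changes in DMSO were below 0, from -0.26 to -0.02 with a median of -0.12, while the median of all genes was 0.00; without 1 library, Klf5 came to 0.02 (knock-out DMSO replicate 2) and Tbx3 to 0.05 (parental DMSO replicate 2). The difference between the lines in their response to CHIR99021 (the interaction) was called for Tfcp2l1, Klf4 and Prdm14, 3 of 10, beside 6.13% of all genes, 3.22% above 0 and 2.91% below. These comparisons share libraries, so that a group that happens to read high or low enters more than 1 of them. Library values of the 2 groups did not overlap for 10 of 10 members between the lines in CHIR99021, where 62.4% of all genes did not overlap, and for 9 of 10 in the parental response to CHIR99021, where 59.4% did not. The counts were 7 of 10 in the knock-out response, beside 52.3% of all genes, and 7 of 10 between the lines in DMSO, beside 49.6%.

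**Figure D2:**
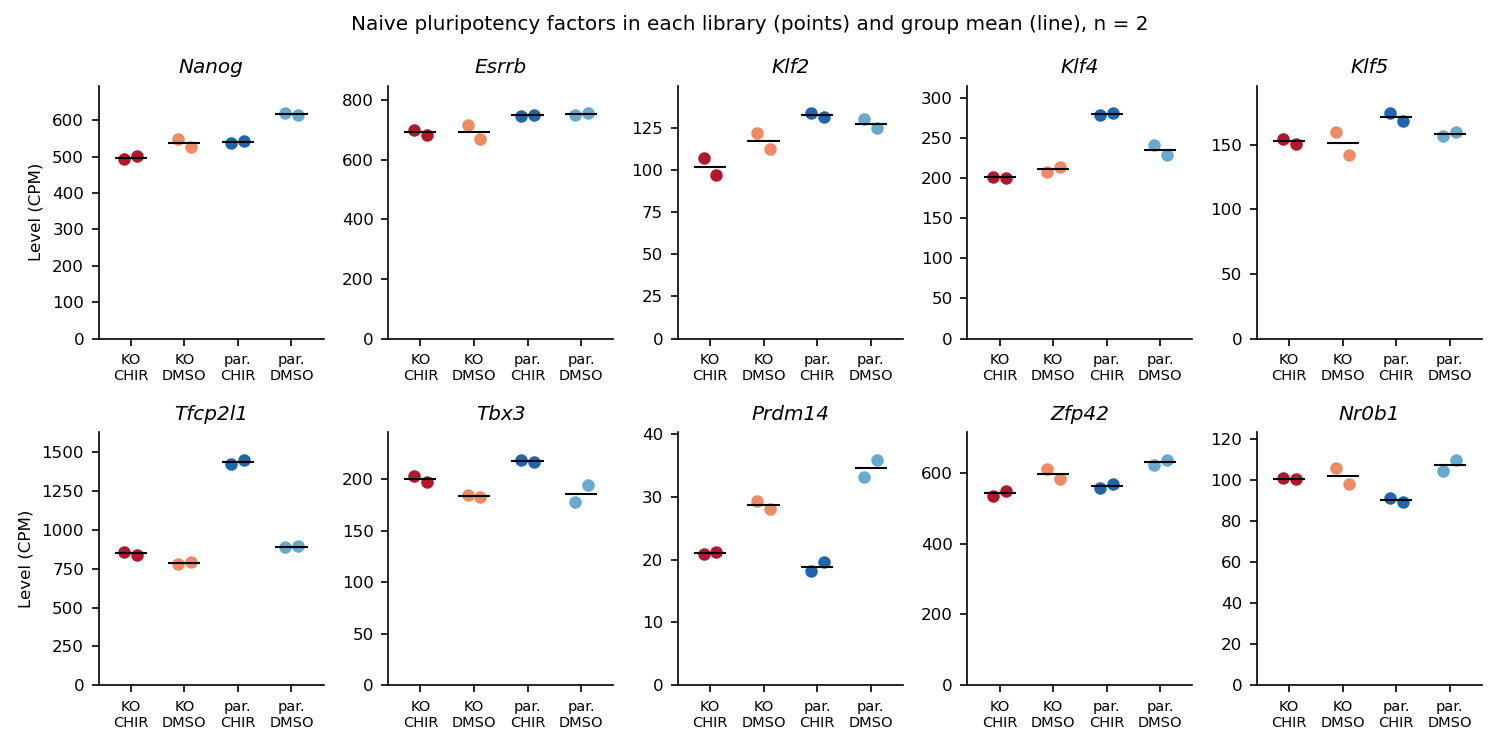
Level in CPM of each factor in each of the 8 libraries (points), with the group mean as a line (n = 2); axes start at 0 and differ between genes. Tfcp2l1 stands at 1427 and 1454 CPM in parental cells with CHIR99021 and at 779 to 898 CPM elsewhere, and the Esrrb panel is nearly level.

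With CHIR99021 against DMSO the factors repressed by Tcf7l1 did not move as 1 group. With CHIR99021 in parental cells Tfcp2l1 rose, Nanog fell, and Esrrb and Klf2 were not called. In knock-out cells none of the 4 was called by edgeR, beside 7.06% of all genes. At an unadjusted p under 0.05 1 was higher and 2 were lower. DESeq2, which called 734 of all genes, called 1 higher and 1 lower. Between the lines all 4 fitted log2 fold changes were below 0, in CHIR99021 and in DMSO. In CHIR99021 3 of the 4 were called lower in the knock-out, beside 12.5% of all genes. In DMSO 2 of the 4 were called lower, beside 3.62%, and all 10 members were below 0 there. Tcf7l1 itself was at 48.9 and 44.2 CPM in knock-out cells with CHIR99021, 60.8 and 62.7 CPM in knock-out cells with DMSO, 27.5 and 25.7 CPM in parental cells with CHIR99021 and 53.5 and 57.7 CPM in parental cells with DMSO. Its log2 fold change with CHIR99021 was -0.41 ± 0.06 (SE) in the knock-out (adjusted p = 0.00402, and 0.0553 without knock-out CHIR99021 replicate 2) and -1.06 ± 0.07 in parental cells (adjusted p = 1.12e-06). Of the 4 TCF/LEF genes, 0 were higher and 1 lower in the knock-out response by edgeR, beside 2.88% and 4.18% of all genes. At an unadjusted p under 0.05 0 were higher and 3 lower, and by DESeq2 0 and 1. In the parental response 1 was higher and 2 lower by edgeR, beside 9.1% and 10.3% of all genes. Tcf7, which mostly activates with β-catenin, was at 24.1 and 23.4 CPM in knock-out cells with CHIR99021, 26.3 and 28.6 CPM in knock-out cells with DMSO, 44.4 and 45.3 CPM in parental cells with CHIR99021 and 26.7 and 27.5 CPM in parental cells with DMSO. Tcf7l2 was at 10.8 and 11.4 CPM in parental cells with CHIR99021 and at 14.0 to 18.0 CPM in the other 6 libraries, and Lef1 was below 1 CPM in all 8.

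Tfcp2l1 (ENSMUSG00000026380, chromosome 1, 118627945 to 118685168 on the plus strand, GRCm38) encodes a factor of the CP2 family that joins the LIF and Wnt inputs to the naive network. Its level was 858 and 841 CPM in knock-out cells with CHIR99021, 779 and 792 CPM in knock-out cells with DMSO, 1427 and 1454 CPM in parental cells with CHIR99021, and 888 and 898 CPM in parental cells with DMSO. The parental libraries with CHIR99021 stood far above the other 6, and no 2 groups overlapped. CHIR99021 raised Tfcp2l1 1.61-fold in parental cells, or by 547 CPM, with log2 fold change 0.69 ± 0.03 (SE, adjusted p = 1.4e-07). In the knock-out the difference was 64.1 CPM, with log2 fold change 0.11 and a 95% interval of 0.04 to 0.19, which did not pass the test (adjusted p = 0.0653). DESeq2 called that difference (adjusted p = 0.0157), as did the fit on genes with at least 5 CPM (0.0288). The effect in knock-out minus that in parental cells was -0.58 (95% interval -0.68 to -0.47, adjusted p = 3.31e-05). Knock-out cells had less Tfcp2l1 than parental cells in CHIR99021, at 0.59 of the parental level (log2 fold change -0.76 ± 0.03, adjusted p = 5.34e-08). In DMSO the log2 fold change was -0.19 ± 0.03 (adjusted p = 0.0077), and leaving out parental DMSO replicate 1 or 2 ended the call (0.0693 and 0.0785).

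Nanog (ENSMUSG00000012396, chromosome 6, 122707489 to 122714633, plus strand), the homeodomain factor at the centre of the network, had its highest levels in untreated parental cells. It was at 493 and 501 CPM in knock-out cells with CHIR99021, 549 and 527 CPM in knock-out cells with DMSO, 538 and 543 CPM in parental cells with CHIR99021, and 619.6 and 615 CPM in parental cells with DMSO. Parental libraries with CHIR99021 fell within the range of the knock-out libraries with DMSO. In parental cells Nanog fell by 0.19 on the log2 scale with CHIR99021 (SE 0.04, adjusted p = 0.00283), and the call held in all 14 alternatives (adjusted p 1.45e-05 to 0.0292). The knock-out gave a log2 fold change of -0.11 ± 0.04 (adjusted p = 0.0821, but 0.0469 by DESeq2 and 0.0488 without knock-out DMSO replicate 2). The responses of the lines were not shown to differ (interaction 0.08, 95% interval -0.03 to 0.19, adjusted p = 0.412). Against parental cells, the knock-out had less Nanog in CHIR99021, with a log2 fold change of -0.12 ± 0.04 (adjusted p = 0.0288), a call that was lost without any 1 of the 2 parental DMSO, 2 parental CHIR99021 or 2 knock-out CHIR99021 libraries (adjusted p 0.0552 to 0.154). In DMSO the value was -0.20 ± 0.04 (adjusted p = 0.00753, and 0.0754 and 0.0555 without parental DMSO replicates 1 and 2).

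Esrrb (ENSMUSG00000021255, chromosome 12, 86361117 to 86521628, plus strand) encodes an orphan nuclear receptor and is the best known target of the GSK3 and Tcf7l1 axis in mouse ESCs. Its level did not follow the treatment. Libraries stood at 699 and 684 CPM in knock-out cells with CHIR99021, 716 and 670.0 CPM in knock-out cells with DMSO, 746 and 750.2 CPM in parental cells with CHIR99021 and 748 and 756 CPM in parental cells with DMSO. Treated and untreated libraries overlapped within each line, and all 4 knock-out libraries lay below all 4 parental ones. The log2 fold change with CHIR99021 was 0.00 in the knock-out (95% interval -0.09 to 0.08, adjusted p = 0.967) and -0.01 in parental cells (95% interval -0.09 to 0.08, adjusted p = 0.927), intervals that leave room for a change of less than 0.1 either way. Between the lines it was -0.11 ± 0.04 in CHIR99021 (adjusted p = 0.0538) and -0.12 ± 0.04 in DMSO (adjusted p = 0.106). Neither passed, but both did without knock-out DMSO replicate 1 (0.0181 and 0.0405) and when low counts were left in (0.0234 and 0.0261). In CHIR99021 the difference also passed with DESeq2 (0.026) and without knock-out DMSO replicate 2 (0.0163).

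Klf2 (ENSMUSG00000055148, chromosome 8, 72319033 to 72321656, plus strand) is one of 3 Krüppel-like zinc-finger factors that can stand in for one another in ESCs. It was at 107 and 96.9 CPM in knock-out cells with CHIR99021, 122 and 113 CPM in knock-out cells with DMSO, 134 and 131 CPM in parental cells with CHIR99021 and 130.1 and 125 CPM in parental cells with DMSO. Its lowest 2 libraries were those of the knock-out with CHIR99021. Knock-out cells had 0.77 of the parental level in CHIR99021 (log2 fold change -0.38 ± 0.06, adjusted p = 0.000599), and this call held in all 14 alternatives. CHIR99021 gave a log2 fold change of -0.20 ± 0.06 in the knock-out (adjusted p = 0.0556) and 0.06 ± 0.06 in parental cells (adjusted p = 0.54). The value in the knock-out passed with no filter (0.00189), with the stricter filter (0.0442) and without knock-out DMSO replicate 2 (0.0444). Its interaction, -0.26 (95% interval -0.43 to -0.08), had an adjusted p of 0.0857, or 0.0117 with no filter and 0.0488 without knock-out CHIR99021 replicate 1.

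Promoter sequence is shown for the member that rose most, Tfcp2l1, and for 2 other Tcf7l1-repressed members with another outcome in parental cells, Nanog, which fell, and Esrrb, which was not called. Each line gives the 250 bases before the annotated start on the plus strand of GRCm38.p6, from RefSeq, at chr1:118627695-118627944, chr6:122707239-122707488 and chr12:86360867-86361116. Nanog and Esrrb each have 2 windows in the table, of which the one at the GENCODE start is printed. Capitals mark matches to the motifs searched.
Tfcp2l1: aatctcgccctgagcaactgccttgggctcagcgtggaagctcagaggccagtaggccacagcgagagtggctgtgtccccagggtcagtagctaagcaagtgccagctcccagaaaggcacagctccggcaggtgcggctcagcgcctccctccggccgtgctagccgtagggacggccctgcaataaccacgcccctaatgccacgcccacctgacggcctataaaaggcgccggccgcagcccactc
Nanog: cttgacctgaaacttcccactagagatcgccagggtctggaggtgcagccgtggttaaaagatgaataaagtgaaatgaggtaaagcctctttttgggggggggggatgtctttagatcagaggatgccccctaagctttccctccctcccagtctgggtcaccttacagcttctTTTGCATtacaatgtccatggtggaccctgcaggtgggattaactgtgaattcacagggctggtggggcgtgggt
Esrrb: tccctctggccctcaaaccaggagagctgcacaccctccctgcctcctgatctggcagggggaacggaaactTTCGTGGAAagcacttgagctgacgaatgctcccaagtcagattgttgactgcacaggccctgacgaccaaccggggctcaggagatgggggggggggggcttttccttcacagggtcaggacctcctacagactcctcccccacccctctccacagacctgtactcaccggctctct
The capitals in Nanog are the reverse complement of ATGCAAA, part of the octamer bound by OCT4, beginning 75 bases before the start, and those in Esrrb match the STAT palindrome TTCNNNGAA, beginning 178 bases before it. No motif searched matched in Tfcp2l1.

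RefSeq promoter windows, 250 bases before to 50 after the start, were found for 7 of the 10 members, 9 windows in all. Klf5, Tbx3 and Prdm14 had none in the table. On both strands, the TCF/LEF motif CTTTGAT matched in 0 of these 9 windows and in 3.73% of all 32851 promoter windows. Its shorter core CTTTGA, which the longer motif contains, matched in Nr0b1 alone and in 16% of all windows. The octamer part ATGCAAA matched in both Nanog windows and in that of Zfp42, and in 4.63% of all windows. The ESRRB motif AAGGTCA matched in 0 of 9 and 4.72% of all, and the STAT palindrome in 1 of 9, that of 1 of the 2 Esrrb windows, and 8.3% of all. A match is a stretch of letters and not a bound site, and these windows hold no distal elements.

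Of the other 2 Krüppel-like factors, Klf4 responded to CHIR99021 in parental cells and Klf5 was not called. Klf4 (ENSMUSG00000003032, chromosome 4, 55527143 to 55532466, minus strand), 1 of the original reprogramming factors, was at 202 and 200.1 CPM in knock-out cells with CHIR99021, 208 and 214 CPM in knock-out cells with DMSO, 279 and 281 CPM in parental cells with CHIR99021 and 242 and 229 CPM in parental cells with DMSO. No 2 groups overlapped, and treated libraries were below untreated ones in the knock-out and above them in parental cells. Klf4 rose by a log2 fold change of 0.25 ± 0.04 with CHIR99021 in parental cells (adjusted p = 0.000992), 1.19-fold, while the knock-out gave -0.07 (95% interval -0.16 to 0.02, adjusted p = 0.321). The interaction was -0.32 (95% interval -0.44 to -0.20, adjusted p = 0.00545). In CHIR99021 the knock-out had 0.717 of the parental level (log2 fold change -0.48 ± 0.04, adjusted p = 8.45e-06); these calls held in every alternative run. In DMSO the difference was -0.16 ± 0.04 (adjusted p = 0.0374), and the call was lost with the compared groups alone (adjusted p = 0.0909) and without any 1 of the 8 libraries (0.0554 to 0.283).

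Klf5 (ENSMUSG00000005148, chromosome 14, 99298691 to 99315036, plus strand), which also acts in the trophectoderm, was at 155 and 151 CPM in knock-out cells with CHIR99021, 160.3 and 142 CPM in knock-out cells with DMSO, 175 and 168 CPM in parental cells with CHIR99021 and 157 and 160.0 CPM in parental cells with DMSO. Its parental libraries with CHIR99021 were the highest of the 8, by a small margin. The log2 fold change with CHIR99021 was 0.02 ± 0.05 in the knock-out and 0.11 ± 0.05 in parental cells (adjusted p = 0.899 and 0.182). Between the lines it was -0.16 ± 0.05 in CHIR99021, with an adjusted p of 0.047 that passed the threshold narrowly and was lost with DESeq2 (0.0521), the stricter filter (0.0543) and without any 1 of the 6 libraries other than knock-out DMSO (0.0635 to 0.229). In DMSO it was -0.07 ± 0.05 (adjusted p = 0.525).

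**Figure D3:**
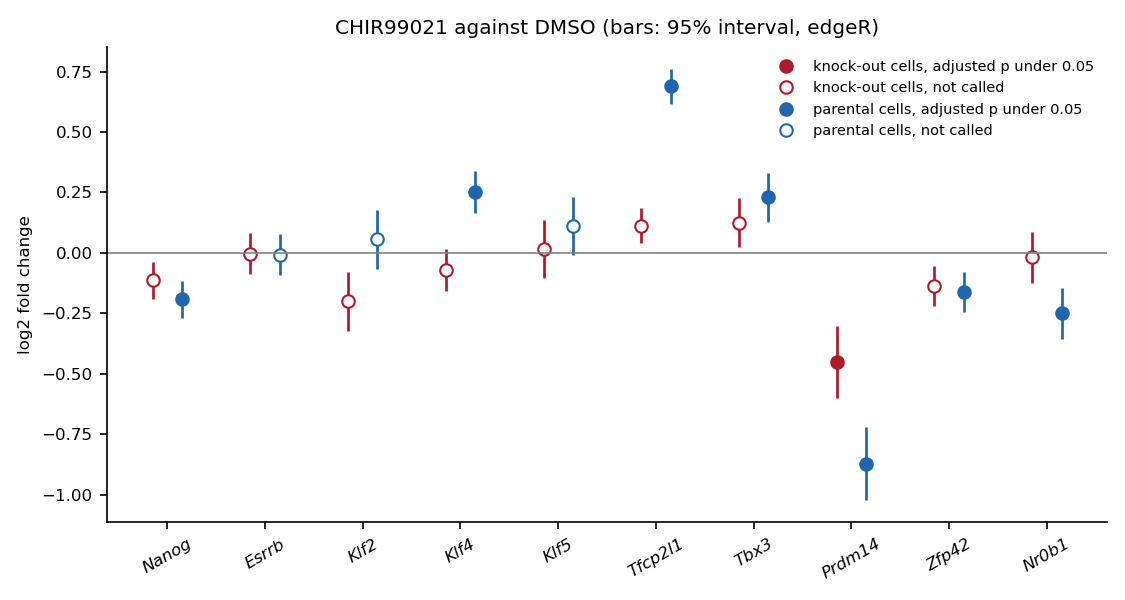
Log2 fold change of each factor with CHIR99021 against DMSO in knock-out cells (red, left of each pair) and parental cells (blue, right), with 95% intervals from edgeR; filled points passed an adjusted p of 0.05. Tfcp2l1 at 0.69 and Klf4 at 0.25 are raised in parental cells with no call in the knock-out, and Prdm14 is lower in both lines.

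Prdm14 (ENSMUSG00000042414, chromosome 1, 13113457 to 13127163, minus strand), a PR-domain protein, was the least abundant member and the one with the largest change. It was at 20.9 and 21.2 CPM in knock-out cells with CHIR99021, 29.4 and 28.1 CPM in knock-out cells with DMSO, 18.2 and 19.6 CPM in parental cells with CHIR99021 and 33.1 and 35.9 CPM in parental cells with DMSO. Treated libraries were below untreated ones in both lines without overlap. With CHIR99021 it fell to 0.731 of the DMSO level in the knock-out, a log2 fold change of -0.45 ± 0.07 (adjusted p = 0.00347), and to 0.547 of it in parental cells, -0.87 ± 0.07 (adjusted p = 5.93e-06). Both calls held in all 14 alternatives. The smaller fall in the knock-out gave an interaction of 0.42 (95% interval 0.21 to 0.63, adjusted p = 0.0262), a call lost with DESeq2 (0.186) and without parental DMSO replicate 2, parental CHIR99021 replicate 1 or any 1 of the 4 knock-out libraries (0.0556 to 0.118).

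Between the lines Prdm14 was lower in the knock-out in DMSO, at -0.26 ± 0.07 on the log2 scale (adjusted p = 0.037). It did not pass with DESeq2 (0.235), with the compared groups alone (0.057) and without any 1 of the 2 parental DMSO or 4 knock-out libraries (0.0544 to 0.236). In CHIR99021 the value was 0.16 ± 0.07 (adjusted p = 0.141). Dnmt3b, a de novo DNA methyltransferase that Prdm14 represses in mouse ESCs, gave a log2 fold change with CHIR99021 of -0.17 ± 0.05 in the knock-out (adjusted p = 0.0914, but 0.0488 without knock-out DMSO replicate 2 and 0.0182 with no filter) and 0.26 ± 0.06 in parental cells (adjusted p = 0.00742, and 0.0559 and 0.0714 without parental DMSO replicate 1 or CHIR99021 replicate 2). Dnmt3a, the other de novo methyltransferase gene of this kind, fell in both lines, with log2 fold changes of -0.32 ± 0.05 in the knock-out (adjusted p = 0.0029) and -1.05 ± 0.05 in parental cells (adjusted p = 1.4e-07).

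Tbx3 (ENSMUSG00000018604, chromosome 5, 119670669 to 119684724, plus strand), a T-box factor of the naive network that is also used in primitive endoderm, was at 203 and 198 CPM in knock-out cells with CHIR99021, 185 and 183 CPM in knock-out cells with DMSO, 219 and 217 CPM in parental cells with CHIR99021 and 178 and 195 CPM in parental cells with DMSO. Treated libraries were higher in both lines, with no overlap. Tbx3 rose with CHIR99021 in parental cells by 0.23 ± 0.05 on the log2 scale (adjusted p = 0.00484, and 0.0586 without parental DMSO replicate 1). The knock-out gave 0.13 ± 0.05 (adjusted p = 0.128), and the interaction, -0.10 (95% interval -0.25 to 0.04, adjusted p = 0.406), did not separate the lines. Its log2 fold change between the lines was -0.12 ± 0.05 in CHIR99021 (adjusted p = 0.0808) and -0.02 ± 0.05 in DMSO (adjusted p = 0.882). The annotated span of Tbx3 overlaps the antisense gene Tbx3os1, and the strand setting of the counting is not given in the sources used here.

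Zfp42 (ENSMUSG00000051176, chromosome 8, 43295063 to 43306980, minus strand) gave a similar small difference in both lines. It was at 536 and 550.1 CPM in knock-out cells with CHIR99021, 610.5 and 583 CPM in knock-out cells with DMSO, 559 and 569 CPM in parental cells with CHIR99021 and 623 and 638 CPM in parental cells with DMSO. Treated libraries were below untreated ones in each line. The log2 fold change was -0.14 ± 0.04 in the knock-out (adjusted p = 0.054) and -0.16 ± 0.04 in parental cells (adjusted p = 0.0115), with an interaction of 0.02 (95% interval -0.09 to 0.14, adjusted p = 0.849). The call in parental cells was lost without parental DMSO replicate 2 (0.105) or CHIR99021 replicate 1 (0.0853), and the value in the knock-out passed with DESeq2 (0.014), no filter (0.0108), the stricter filter (0.0476) and without knock-out DMSO replicate 2 (0.0336). The lines differed by -0.06 ± 0.04 in CHIR99021 (adjusted p = 0.326) and -0.08 ± 0.04 in DMSO (adjusted p = 0.251).

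Nr0b1 (ENSMUSG00000025056, chromosome X, 86191764 to 86195947, plus strand), also called Dax1, encodes an orphan nuclear receptor without a classical DNA-binding domain that acts as a co-repressor. It was at 101 and 100.3 CPM in knock-out cells with CHIR99021, 106 and 97.9 CPM in knock-out cells with DMSO, 91.0 and 89.3 CPM in parental cells with CHIR99021 and 104 and 109.9 CPM in parental cells with DMSO. The parental libraries with CHIR99021 were the lowest of the 8. It fell by 0.25 on the log2 scale with CHIR99021 in parental cells (SE 0.05, adjusted p = 0.00392, 0.0455 or less in all 14 alternatives), and the knock-out gave -0.02 (95% interval -0.12 to 0.09, adjusted p = 0.865). That difference in response, 0.23 (95% interval 0.08 to 0.38), did not pass (adjusted p = 0.0735); it passed with no filter (0.0287), the stricter filter (0.0319) and without knock-out DMSO replicate 1 (0.0464). In CHIR99021 Nr0b1 was the 1 member called higher in the knock-out, by a log2 fold change of 0.16 ± 0.05 (adjusted p = 0.0356), a call lost with DESeq2 (0.11) and without any 1 of the 4 CHIR99021 libraries (0.103 to 0.163). In DMSO the difference was -0.07 ± 0.05 (adjusted p = 0.426).

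**Figure D4:**
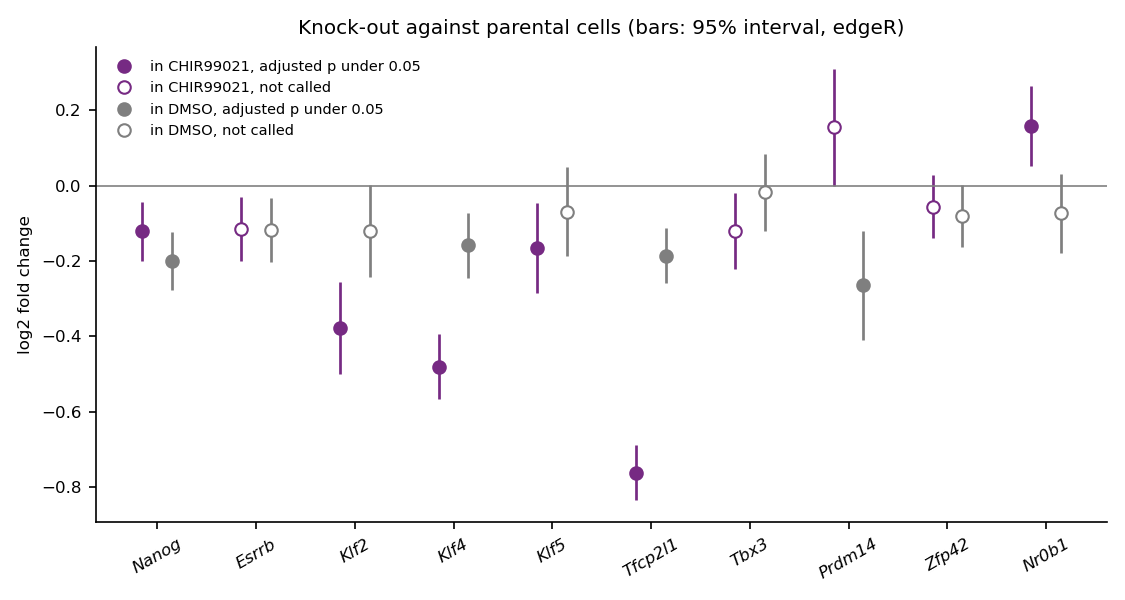
Log2 fold change of each factor in knock-out against parental cells, in CHIR99021 (purple, left of each pair) and in DMSO (grey, right), with 95% intervals from edgeR; filled points passed an adjusted p of 0.05. Tfcp2l1 at -0.76, Klf4 at -0.48 and Klf2 at -0.38 are the lowest in CHIR99021, and all 10 points in DMSO lie below 0, between -0.26 and -0.02.

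Of 17 listed genes of the naive network outside the set, 1 was higher and 6 lower with CHIR99021 in the knock-out, and 2 were higher and 9 lower in parental cells. Over all genes 2.88% were called higher and 4.18% lower in the knock-out, and 9.1% and 10.3% in parental cells. The median log2 fold change of the 17 genes was -0.03 in the knock-out and -0.26 in parental cells, beside 0.00 for all genes in both lines. In the knock-out the homeobox gene Gbx2 fell by 0.56, the nuclear receptor gene Nr5a2 by 0.37 and Tfe3 by 0.31 on the log2 scale, and Pecam1, an adhesion molecule, was at 0.24 ± 0.04 (adjusted p = 0.0018 to 0.00971). Pecam1 did not pass when knock-out DMSO replicate 1 (0.0518) or either knock-out CHIR99021 library (0.0731 and 0.0818) was left out, and the same held for Tdh and Dppa4, which were lower (0.0937 to 0.192). Tdh also did not pass with the compared groups alone (0.107) or without parental DMSO replicate 1 or 2 or CHIR99021 replicate 1 (0.0507 to 0.0714). In parental cells Tdh, the threonine dehydrogenase of ESCs, rose by 0.61 ± 0.04, while the growth factor gene Fgf4 fell by 0.82, Tcl1, a co-activator of the kinase AKT, by 0.65 and Dppa2 by 0.54 (adjusted p 8.91e-08 to 6.19e-06). The interaction was called for these 4, at -0.75 for Tdh, 0.84 for Fgf4, 0.80 for Tcl1 and 0.42 for Dppa2.

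**Figure D5:**
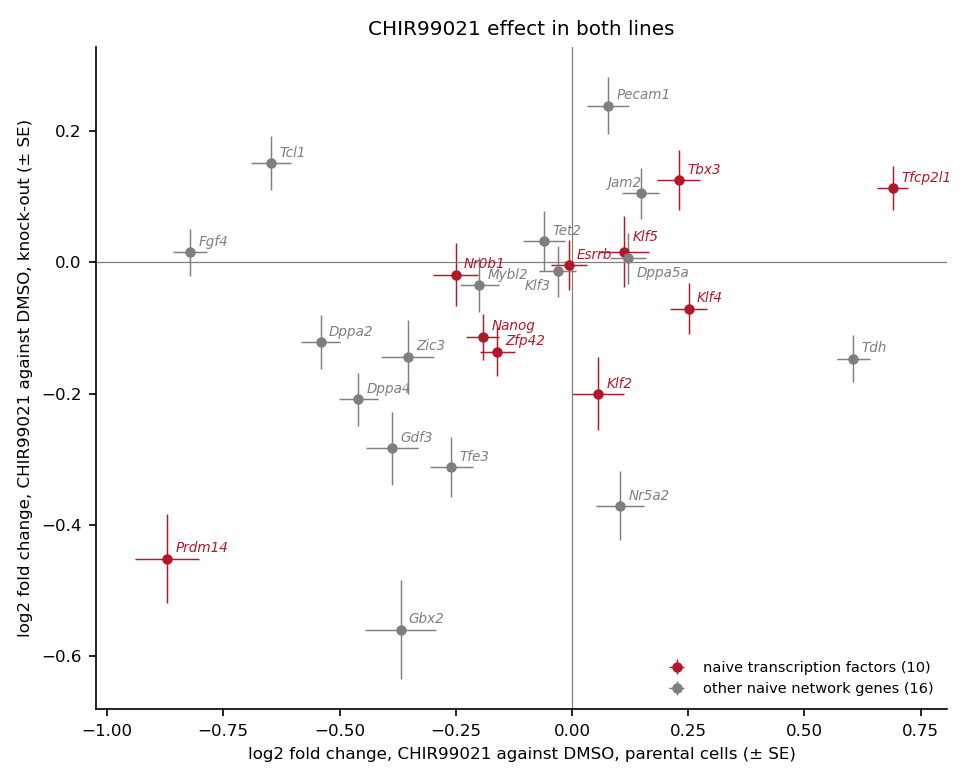
Log2 fold change with CHIR99021 against DMSO in parental cells (x axis) and in knock-out cells (y axis), each ± SE, for the 10 factors (red) and 16 of the 17 other naive network genes (grey); Dppa3 is left out because it lay between 0.181 and 1.29 CPM. Tfcp2l1 and Tdh lie far to the right and Fgf4 and Tcl1 far to the left with knock-out values between -0.15 and 0.15, and Prdm14 is low on both axes.

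Among the core factors, to which the naive network is tied, calls with CHIR99021 against DMSO were all lower. Of Pou5f1, Sox2 and Sall4, 1 was lower with CHIR99021 in the knock-out, beside 4.18% of all genes, and 3 in parental cells, beside 10.3%. None was higher by edgeR at an adjusted or unadjusted p or by DESeq2. In the knock-out Sall4 fell by 0.20 (adjusted p = 0.0317), a call lost with the compared groups alone (0.0533) and without parental CHIR99021 replicate 1, knock-out DMSO replicate 1 or either knock-out CHIR99021 library (0.0519 to 0.229). In parental cells Sall4 and Sox2 each fell by 0.38 (log2; adjusted p = 0.000268 and 7.29e-05), and Pou5f1 was at -0.13 ± 0.04 (adjusted p = 0.0358, and 0.0562 to 0.214 without any 1 of the 4 parental libraries or knock-out CHIR99021 replicate 1). The median absolute log2 fold change in parental cells was 0.38 for these 3 genes and 0.18 for all genes tested. Between the lines in CHIR99021 Sox2 and Sall4 were higher in the knock-out, by log2 fold changes of 0.14 and 0.18. These passed in edgeR (adjusted p = 0.0295 and 0.0249), beside 11.2% of all genes higher. Each call was lost in 4 of 14 alternatives. The interaction was called for Sox2 (0.26, adjusted p = 0.024), a call lost in 6 of 13 alternatives. Of 9 genes of the LIF and STAT3 input, 6 were lower and none higher in the knock-out (edgeR; none higher at an unadjusted p or by DESeq2, which called 5 lower), and 4 were lower and 1 higher in parental cells, beside the shares of all genes given for the other naive genes. In the knock-out Il6st, the LIF co-receptor gene, and Stat3 lost their calls when knock-out DMSO replicate 1 or either knock-out CHIR99021 library was left out (0.0806 to 0.122). The receptor gene Lifr fell in both lines, by 0.41 in the knock-out (adjusted p = 0.00105) and by 0.91 in parental cells (adjusted p = 3.6e-07). Pim1, a kinase gene downstream of STAT3, was at -0.34 ± 0.04 in the knock-out and at 0.60 ± 0.04 in parental cells (adjusted p = 0.00145 and 2.05e-06), with an interaction of -0.93 ± 0.06 (adjusted p = 5.9e-06).

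Formative and primed factors replace the naive set when ESCs leave that state, and 12 of the 13 listed were tested. In the knock-out 5 were lower and none higher (edgeR; 1 higher at an unadjusted p; by DESeq2 none higher and 3 lower), beside 4.18% of all genes lower, and in parental cells 7 were lower and 2 higher, beside 10.3% and 9.1% of all genes. Of the 5 in the knock-out 3, among them Fgf15 and Etv5, lost their calls without knock-out DMSO replicate 1 or either knock-out CHIR99021 library (0.0667 to 0.19). The median log2 fold change of the 12 was -0.30 in the knock-out and -0.85 in parental cells. Besides Dnmt3a, Grhl2, a grainyhead-like factor, fell in both lines, with log2 fold changes of -1.13 ± 0.14 in the knock-out and -1.47 ± 0.16 in parental cells (adjusted p = 0.0012 and 5.68e-05). Etv4, an ETS factor of the FGF response, was among those that rose in parental cells, by 0.37 ± 0.04 (adjusted p = 0.000113).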

How the data were processed

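Polyadenylated RNA (TruSeq Stranded mRNA libraries) from 8 ESC samples was quantified by the authors with kallisto on build GRCm38.p4, per the submitters' processing notes. The deposited table holds estimated counts per Ensembl gene, 1 column per library, not normalised; per library, 36.9% to 38.4% were not whole. The transcript set and strand setting are not given in the sources used here. Columns were matched to samples by title.

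Counts were rounded and filtered with filterByExpr of edgeR 4.0.16 (at least 10 counts, 15 in total; 17739 genes). They were fitted after TMM scaling, edgeR's default, with 1 mean per group over all 8 libraries (4 residual degrees of freedom; quasi-likelihood F test, 2-sided, Benjamini-Hochberg over all genes tested). SE is the absolute log2 fold change over the root of F. Intervals are 95%. Replicate pairs differed by 3.26 to 4.86 times counting variance (chi-square per degree of freedom), so none was counted as a repeat. The fit was tested on simulated data.

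Coordinates and exon lengths came from GENCODE M21 (GRCm38). All 10 members are named whatever their values, and of the other lists up to 4 genes with the smallest adjusted p of a comparison, plus genes a sentence turns on (Tcf7l1, Dnmt3b). Some values that these rules name are not reported here. Members and lists were chosen with earlier results of these data known. Alternatives were DESeq2 1.42.0, relative log expression factors, no filter beyond 1 read, a filter of 5 CPM in 2 libraries, a replicate block, a fit of the compared groups alone and leaving out each library. For genes outside the set they were chosen after seeing the data.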

Additional observations from a re-analysis of the deposited data

Results flagged for a closer look

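For 3 of the 10 factors the response to CHIR99021 differed between the lines by a test of the difference itself (effect in knock-out minus effect in parental cells, edgeR, 2 libraries per group). Over all genes 6.13% were called, 3.22% above 0 and 2.91% below. Tfcp2l1 gave -0.58 on the log2 scale (adjusted p = 3.31e-05), with the response above 0 in both lines and larger in parental cells. For Klf4 the value was -0.32 (adjusted p = 0.00545), with a fitted response below 0 in the knock-out and above 0 in parental cells. Prdm14 gave 0.42 (adjusted p = 0.0262), with a fall in both lines that was smaller in the knock-out. This call was lost in 7 of 13 alternatives, DESeq2 among them (adjusted p = 0.186). The 8 streak and mesoderm markers summed to 3.59 to 3.8 CPM in knock-out cells with CHIR99021. In parental cells with CHIR99021 they summed to 43.3 to 45.3 CPM, mostly from Eomes and T. The part of these markers in these differences was not tested.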

How the results depend on the processing

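Of the values of single members under the alternatives, 602 kept sign and side of the threshold, 50 lost a call and 24 gained one. Another 14, called in neither fit, changed sign, by values of at most 0.0645 on the other side of 0. The cause of these changes was not tested. With DESeq2, all genes called were 2029 in the parental response to CHIR99021 (3441 with edgeR), 734 in that of the knock-out (1252), 701 (1198) between the lines in DMSO, 2483 (4200) between them in CHIR99021, and 661 (1087) for the interaction. With no filter they were 2167 in the knock-out response, 2064 between the lines in DMSO and 1990 for the interaction. Members called in the knock-out response were 1 of 10 with edgeR, 4 with DESeq2, 3 with no filter, 4 with the stricter filter and 2 with the replicate block. All genes called there were 1252 with edgeR, 734 with DESeq2 and 2167 with no filter, and are not given for the stricter filter and the block. Members called between the lines in DMSO were 4, and 2 with the compared groups alone, a fit for which no count of all genes is given. For the interaction they were 3, and 5 with no filter. Leaving out 1 library at a time gave 2057 to 3507, 307 to 1237, 357 to 1047, 2509 to 4353 and 605 to 1143 genes in these 5 comparisons, and 6 to 7, 1 to 4, 0 to 3, 3 to 7 and 2 to 3 members. The calls on members between the lines in DMSO were lost without parental DMSO replicate 1 or 2, where fewer of all genes were called too. The lone library of a group is then assumed to vary like those of other groups. The block brought in calls on Klf2 in the knock-out response (adjusted p = 0.0249) and the interaction (0.0383). The labels do not say that a number marks a shared culture or day. Deviations of same-numbered libraries from group means correlated, across genes, at 0.211 to 0.38 among the 3 groups other than parental DMSO and at -0.111 to -0.0322 with parental DMSO. Replicate 1 also had the larger total count in those 3 groups and the smaller one in parental DMSO. Whether libraries of the same number share something in the 3 groups was not tested, and the main fit did not pair libraries.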

Other observations

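By the root mean square difference of log2 CPM, centred on each gene's own mean over the 8 libraries, Tfcp2l1 was most like Asns, the asparagine synthetase gene (0.0396), and Tmem102 (0.055) among 9790 genes with at least 5 CPM on average. Its own spread on that scale was 0.342. Asns was at 268 and 266 CPM in knock-out cells with CHIR99021, 238 and 242 CPM in knock-out cells with DMSO, 427 and 467 CPM in parental cells with CHIR99021 and 288 and 290.0 CPM in parental cells with DMSO. Prdm14, with a spread of 0.343, was most like Bcl2l11, which encodes the pro-apoptotic protein BIM (0.0767), and Hmces (0.0802). Bcl2l11 stood at 20.9 and 20.5 CPM in knock-out cells with CHIR99021, 31.5 and 30.2 CPM in knock-out cells with DMSO, 18.6 and 18.4 CPM in parental cells with CHIR99021 and 31.8 and 33.2 CPM in parental cells with DMSO. Klf4 was most like Snx1 (0.0375) and Msmo1, a sterol synthesis enzyme gene (0.0394).

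Members that varied little had many genes as close to them: 442 lay within 0.05 of Esrrb, 264 of Zfp42 and 214 of Klf5, against 1 of Tfcp2l1 and 0 of Prdm14. The nearest to Esrrb were Ube2d1 and Tomm22, to Klf2 Ssna1 and Zmynd19, to Klf5 Maea and Rplp0, to Tbx3 Spice1 and Iqce, to Zfp42 Ngdn and Ruvbl1, and to Nr0b1 Itsn1 and Sik1. These distances describe 8 libraries in 4 groups and carry no test. The table also lists Nanog-ps1 and Nanog-ps2, copies of Nanog, at 0 in all 8 libraries.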
